A study of Rattus norvegicus with 12 samples.

Results

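The genes described here are Cyp1b1 and 5 genes of the aryl hydrocarbon receptor (AHR) pathway, Ahr, Arnt, Ahrr, Tiparp and Cyp1a1, in whole rat ovary. They are 6 of the 19730 genes with a value in the deposited table, and 4 of them are among the 13430 whose average over all libraries reached 1 FPKM (fragments per kilobase of transcript scaled to the library's fragment total, a level per length). The set was chosen by what Cyp1b1 does in the PCOS group, where its level was known to be high. The other members were added because they belong to the same pathway, with earlier results of these data known. The values of Cyp1b1, and those of every member in the comparison of PCOS with control, are therefore given as a description with no test. The other members were tested in the comparisons that include the PCOS-MV group.

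Ovaries of 12 wild type Sprague Dawley rats, aged 15 weeks after birth, were sequenced as 1 library per rat, 4 rats in each group. Rats of the control group were untreated and ate standard food. Rats of the PCOS group received the aromatase inhibitor letrozole for 30 days together with a high-fat diet, which makes a model of polycystic ovary syndrome. Rats of the PCOS-MV group received the same letrozole and diet and then mogroside V, a sweet triterpene glycoside of monk fruit, for a further 30 days. The PCOS and PCOS-MV animals had been selected on vaginal smears before the groups were formed. All rats in both of those groups had both letrozole and the diet, so the 2 cannot be told apart, and no group received mogroside V alone. Each library is whole tissue, so fewer cells of a type and less RNA per cell cannot be told apart in any value below.

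AHR is a ligand-activated transcription factor of the bHLH-PAS family. It waits in the cytoplasm with HSP90 chaperones, enters the nucleus when it binds a ligand such as a dioxin, a plant indole or a tryptophan metabolite, and pairs there with ARNT. The pair binds DNA at the xenobiotic response element, whose core letters are GCGTG, and drives Cyp1a1, Cyp1b1, Tiparp and Ahrr. AHRR and TIPARP are both known to dampen the receptor in return. CYP1B1 is a microsomal P450 that hydroxylates estradiol to a catechol estrogen as well as oxidizing foreign aromatic compounds, and it is also expressed in steroidogenic tissue such as the adrenal cortex and the ovary.

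The 250 bases before the transcription start are shown for Cyp1b1, Ahrr and Tiparp, the 3 members that are known receptor targets and had a promoter in the RefSeq table of the GRCr8 build. The core GCGTG, or CACGC where it lies on the other strand, is in capitals, and every sequence reads 5′ to 3′ along the gene.
Cyp1b1 promoter, chr6:21094315-21094564, plus strand: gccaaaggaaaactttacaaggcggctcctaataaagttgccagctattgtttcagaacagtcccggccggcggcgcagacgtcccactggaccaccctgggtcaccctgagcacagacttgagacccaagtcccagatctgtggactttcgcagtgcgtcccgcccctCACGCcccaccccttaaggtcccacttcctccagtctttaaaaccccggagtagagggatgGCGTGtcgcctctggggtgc
Ahrr promoter, chr1:30821969-30822218, plus strand: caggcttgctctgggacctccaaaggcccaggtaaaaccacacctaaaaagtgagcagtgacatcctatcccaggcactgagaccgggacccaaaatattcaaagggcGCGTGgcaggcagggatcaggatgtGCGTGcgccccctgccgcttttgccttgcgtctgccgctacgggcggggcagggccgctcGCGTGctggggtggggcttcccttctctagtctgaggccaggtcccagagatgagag
Tiparp promoter, chr2:152063519-152063768, plus strand: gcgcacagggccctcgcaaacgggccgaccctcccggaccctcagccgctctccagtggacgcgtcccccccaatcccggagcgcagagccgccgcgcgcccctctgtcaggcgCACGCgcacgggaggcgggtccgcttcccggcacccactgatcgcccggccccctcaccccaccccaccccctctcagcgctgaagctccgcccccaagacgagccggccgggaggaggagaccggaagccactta

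The Cyp1b1 window held 2 cores, whose first letters lie 81 and 20 bases before the start. The Ahrr window held 3, at 142, 117 and 57 bases. The Tiparp window held 1, at 136 bases, and the Arnt window 1, at 42 bases. The letters did not occur in the Ahr window. Among all 33469 promoters of the table, 25.9% held the core on either strand, 8.12% held 2 or more and 2.58% held 3 or more. The match of these letters is a description of the windows and not a measurement of binding, and windows farther from the start were not searched. Cyp1a1 was not matched in the table.

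Cyp1b1 was the member that stood apart in the PCOS group. Its gene (ENSRNOG00000040287) lies on the minus strand at chr6:2307808-2316722 in the coordinates of the deposited table, whose build is not given in the sources used here and is not GRCr8. Its level in the 4 control ovaries was 16.9, 18.1, 13.1 and 20.7 FPKM. In the 4 PCOS ovaries it was 329, 431, 289 and 276 FPKM. In the 4 PCOS-MV ovaries it was 65.7, 21.8, 16.5 and 18.9 FPKM. The PCOS values lay far above all others, and the lowest of them was 13.3 times the highest control value and 4.19 times the highest PCOS-MV value. PCOS-MV replicates 2 to 4 lay close to the control range, while replicate 1 was 3.02 times the next PCOS-MV value and 3.17 times the highest control value.

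The mean level of Cyp1b1 was 17.2 ± 3.19 FPKM in control, 331 ± 70.4 in PCOS and 30.7 ± 23.4 in PCOS-MV (SD, n = 4 each). PCOS was thus 19.3-fold above control by the ratio of means and 10.8-fold above PCOS-MV. Without PCOS-MV replicate 1 the PCOS-MV mean was 19.1 ± 2.64 FPKM (SD, n = 3), 1.11 times control, and the PCOS mean was 17.4 times it. On the log2(FPKM + 1) scale the difference was 4.18 (SE 0.17) between PCOS and control, −3.60 (SE 0.39) between PCOS-MV and PCOS and 0.59 (SE 0.40) between PCOS-MV and control. With 1 library left out at a time the first of these differences ran from 4.05 to 4.28. When the genes of each library were ordered by FPKM, Cyp1b1 ranked between 95 and 160 in PCOS, between 3544 and 5576 in control, and between 972 and 4462 in PCOS-MV. The position 972 was that of PCOS-MV replicate 1.

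**Figure D1:**
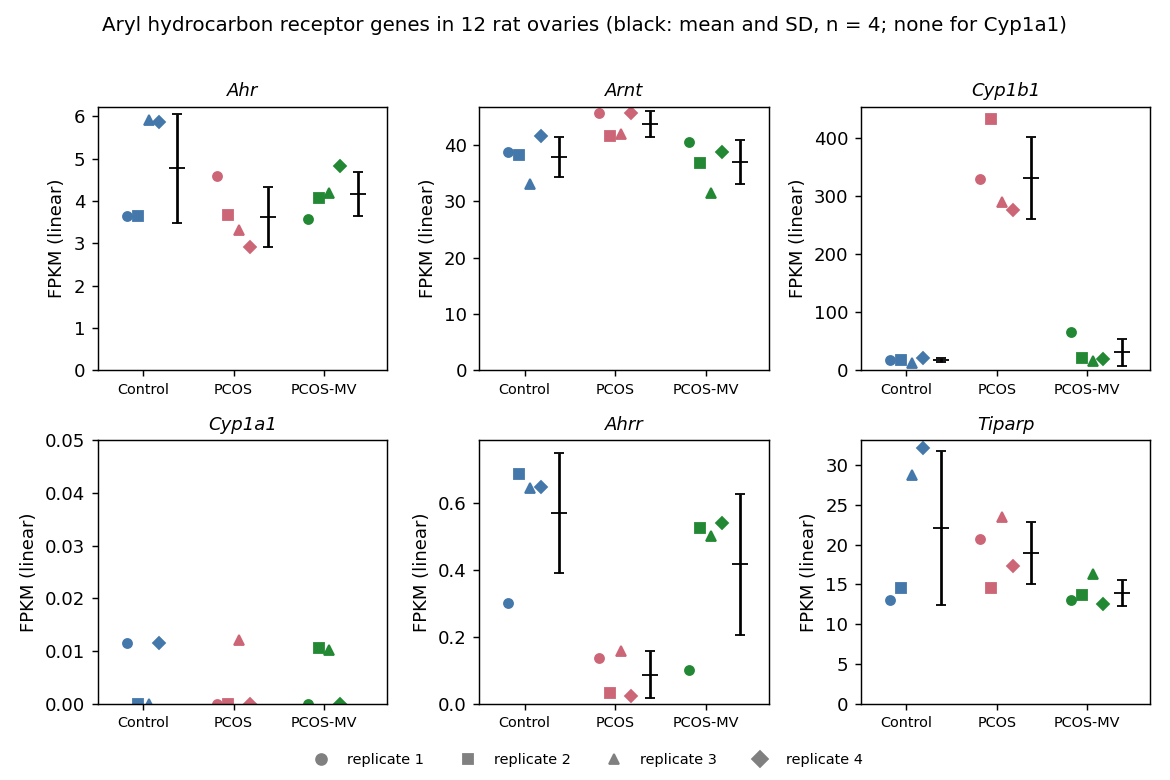
Level of the 6 genes in each ovary, in FPKM on linear axes that start at 0 and differ between panels. Each point is 1 rat, its shape gives the replicate number, and the black mark and bar are the mean and SD of the 4 rats (left out for Cyp1a1). Cyp1b1 lay between 276 and 431 FPKM in PCOS and at or below 65.7 FPKM elsewhere, Ahrr was lowest in PCOS and in PCOS-MV replicate 1, and Ahr, Arnt and Tiparp lay within a narrower range.

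Levels of the other P450s of the family were at the edge of detection. Cyp1a1 (ENSRNOG00000019500, plus strand, chr8:62472095-62478147), the classical readout of AHR activity, was listed at 0 in 7 libraries. In the remaining 5, Control replicates 1 and 4, PCOS replicate 3 and PCOS-MV replicates 2 and 3, its level was 0.0115, 0.0115, 0.0122, 0.0107 and 0.0101 FPKM. The steps between low values in the table imply that each of these is 1 fragment. No difference between groups was detectable at this depth. Cyp1a2, which neighbours Cyp1a1 on chromosome 8, was listed at 0 in 11 of the 12 libraries and at 0.0221 FPKM in PCOS replicate 2. A gene with such values has no usable fold change, and neither gene was in the fit.

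Ahr, the receptor itself (ENSRNOG00000004342, minus strand, chr6:54963990-55001464), was present at a few FPKM in every ovary. Its control levels were 3.64, 3.65, 5.91 and 5.86 FPKM. Its PCOS levels were 4.58, 3.66, 3.31 and 2.92 FPKM. Its PCOS-MV levels were 3.57, 4.06, 4.20 and 4.83 FPKM. The 3 groups overlapped, and the control rats fell into 2 pairs, with replicates 3 and 4 above every other library. The difference in log2(FPKM + 1) between PCOS and control was −0.31 (SE 0.18). PCOS-MV against PCOS gave 0.17 (SE 0.13, 95% interval −0.12 to 0.46, limma with Benjamini-Hochberg adjustment, adjusted p = 0.364), and PCOS-MV against control gave −0.14 (SE 0.17, adjusted p = 0.813). By the exact two-sided permutation test of the 4 against 4 values, whose smallest possible p is 0.0286, these gave p = 0.257 and p = 0.429.

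Arnt, the partner that AHR shares with the hypoxia factors (ENSRNOG00000031174, plus strand, chr2:196594303-196651179), was more abundant than Ahr in every library, by 5.59 to 15.7 times on the FPKM scale. It measured 38.8, 38.2, 33.0 and 41.6 FPKM in control, 45.7, 41.5, 42.0 and 45.7 FPKM in PCOS, and 40.5, 36.8, 31.5 and 38.8 FPKM in PCOS-MV. All 4 PCOS values lay above all 4 PCOS-MV values, and the PCOS and control ranges touched. The PCOS-MV against PCOS difference was −0.24 on the log2(FPKM + 1) scale (SE 0.09, 95% interval −0.45 to −0.04), which did not pass after adjustment over all genes (limma adjusted p = 0.0779), although the exact permutation test gave p = 0.0286, the smallest it can give here. After rescaling the libraries by their median ratio the difference was −0.27 and the limma adjusted p was 0.0399. With 1 library left out at a time the limma adjusted p ran from 0.056 to 0.173. Values that do not overlap between these groups were found in 30.0% of the genes tested, so the separation of Arnt is a common pattern in this comparison. PCOS differed from control by 0.21 (SE 0.08), and PCOS-MV from control by −0.04 (SE 0.10, limma adjusted p = 0.925, exact permutation p = 0.686).

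Ahrr, the repressor that competes with AHR for ARNT (ENSRNOG00000014721, plus strand, chr1:31603297-31698329), was low throughout. Its group mean was lowest in PCOS, where that of Cyp1b1 was highest. Ahrr measured 0.302, 0.687, 0.644 and 0.649 FPKM in control, 0.136, 0.0308, 0.158 and 0.0238 FPKM in PCOS, and 0.102, 0.524, 0.501 and 0.540 FPKM in PCOS-MV. These levels correspond to about 47, 108, 97 and 101 fragments in control, 20, 5, 22 and 4 in PCOS and 16, 84, 87 and 88 in PCOS-MV, so the PCOS values carry the largest relative counting error. Every PCOS value lay below every control value, with means of 0.0870 ± 0.0696 and 0.570 ± 0.180 FPKM (SD, n = 4), a 6.55-fold ratio of control to PCOS. In PCOS-MV, replicates 2 to 4 lay above all PCOS values and replicate 1 lay among them.

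The mean of Ahrr in PCOS-MV was 0.417 ± 0.210 FPKM (SD, n = 4), 4.79 times that of PCOS. With 1 added to the FPKM, the PCOS-MV against PCOS difference was 0.37 on the log2 scale (exact permutation p = 0.0857), and without PCOS-MV replicate 1 it was 0.49 (exact permutation p = 0.0286). With each of the 8 libraries left out in turn, this was the 1 value under 0.05, and the highest exact permutation p was 0.114. Ahrr lies below the filter of 1 FPKM, and in a fit with no filter and a pseudocount of 0.1, chosen after seeing the data, the difference was 1.41 (SE 0.45, limma adjusted p = 0.0735). The same fit gave −1.87 (SE 0.33) for PCOS against control, as a description, and −0.47 (limma adjusted p = 0.736) for PCOS-MV against control. PCOS-MV replicate 1 was therefore the library with the highest Cyp1b1 and the lowest Ahrr of its group.

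Tiparp, which encodes a mono-ADP-ribosyltransferase that acts on AHR (ENSRNOG00000011238, plus strand, chr2:157316266-157341469), varied most within the control group. Its levels were 13.0, 14.5, 28.7 and 32.1 FPKM in control, 20.6, 14.5, 23.4 and 17.3 FPKM in PCOS, and 13.0, 13.6, 16.3 and 12.6 FPKM in PCOS-MV. Control replicates 3 and 4 were again the high pair, as for Ahr, and the 3 groups overlapped. PCOS and control differed by −0.13 (SE 0.30), a value with no stable sign, since it was 0.03 without Control replicate 3 and 0.08 without Control replicate 4. PCOS-MV against PCOS gave −0.41 (SE 0.15, 95% interval −0.74 to −0.07, limma adjusted p = 0.074, exact permutation p = 0.0571). Of 8 fits with 1 library left out, 1 had a limma adjusted p under 0.05. It was 0.0304 without PCOS replicate 2, when the difference was −0.52. The highest limma adjusted p of the 8 was 0.163, and 1 model over all 12 libraries gave 0.287. PCOS-MV against control gave −0.54 (SE 0.28, limma adjusted p = 0.623, exact permutation p = 0.2).

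Across the members, the values of 2, Cyp1b1 and Ahrr, did not overlap between PCOS and control, which was the contrast that chose the set. Among all genes tested 31.0% did not overlap in that comparison, 27.4% passed the limma test, 11.9% as higher and 15.6% as lower in PCOS. In PCOS-MV against PCOS 25.7% of genes passed, 14.3% as higher and 11.4% as lower, and none of the 3 members in the fit and under test (Ahr, Arnt, Tiparp) was among them. PCOS-MV against control passed for 1 gene of 13430, or 0.00745%, with 1142 genes at an unadjusted p under 0.05, so a member that did not pass there is in the company of nearly all genes. Both comparisons with PCOS share the PCOS libraries, and the values for a gene in them are not independent.

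The wider pathway was described by 8 lists of 70 genes, of which 65 were in the table and 45 in the fit. In PCOS against control 18 of the 45 (40%) passed beside 27.4% of all genes, 10 higher and 8 lower, with a median log2 difference of 0.09 beside −0.03. That count rested on single libraries, since 10 genes passed without Control replicate 2, 10 without PCOS replicate 1 and 10 without PCOS replicate 4, which is 22.2% beside 21.5%, 24.6% and 20.6% of all genes in the same fits. In the other fits with 1 library left out the share was 26.7% to 37.8%, beside 20.6% to 29.2% of all genes. In PCOS-MV against PCOS 19 of the 45 (42.2%) passed beside 25.7% of all genes, 9 higher and 10 lower, with a median of −0.05 beside 0.03. With 1 library left out 15 to 21 passed, which is 33.3% to 46.7% beside 18.2% to 25% of all genes. Ereg is among the 19, and it reached the filter of 1 FPKM through its PCOS-MV values. The lists were chosen with earlier results of these data known, and whether they differ from all genes was not tested. None of the 45 passed in PCOS-MV against control by limma.

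**Figure D2:**
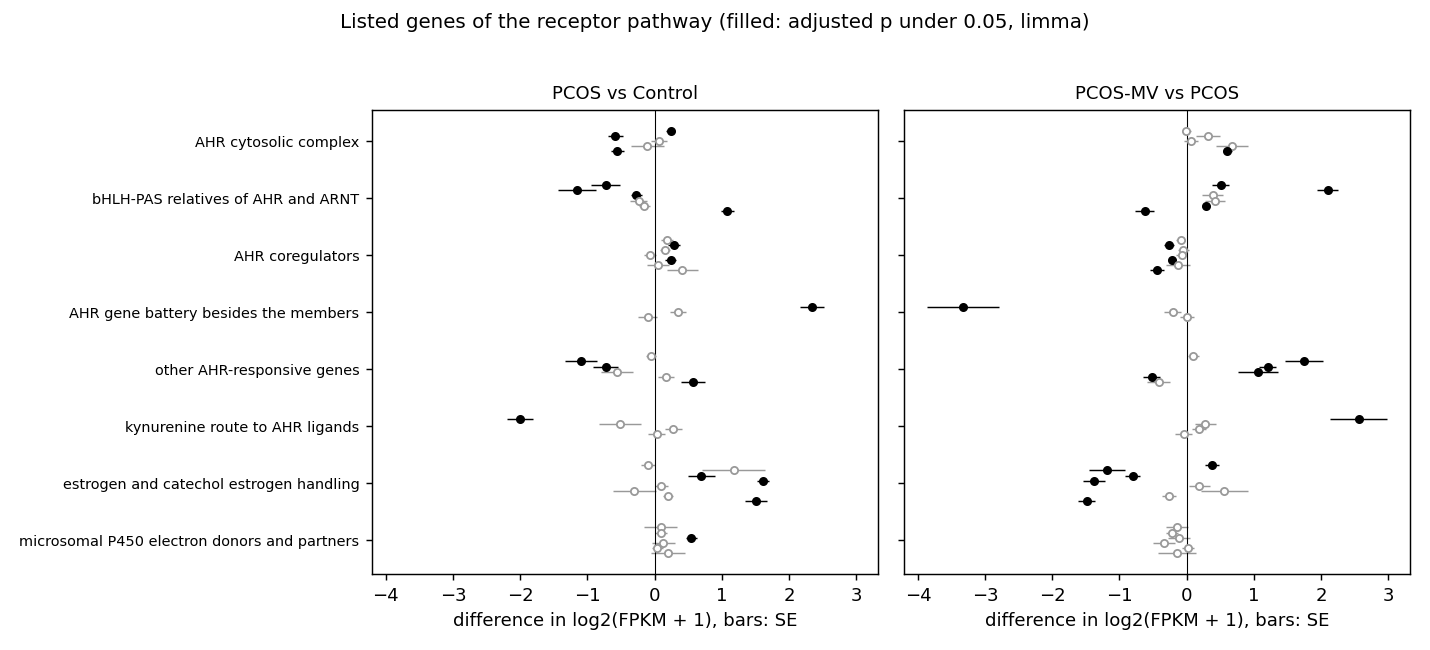
Difference in log2(FPKM + 1) of each listed gene in the fit, with its SE, for PCOS against control (left) and PCOS-MV against PCOS (right), on 1 common horizontal scale. Filled points passed an adjusted p of 0.05 by limma. Gsta2 is the point at 2.35 on the left and −3.33 on the right, Aadat the point at −2.001 and 2.56, and most coregulators and P450 partners lie within 0.5 of 0.

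Of the cytosolic complex that holds AHR, 3 of 5 genes passed in PCOS against control. Hsp90aa1, the inducible HSP90 chaperone, fell by 0.58 (SE 0.11, limma adjusted p = 0.00619), from between 118 and 149 FPKM in control to between 70.9 and 96.1 in PCOS. Src, a kinase that AHR releases on ligand binding, fell by 0.55 (SE 0.10, limma adjusted p = 0.00422) and was 0.60 higher again in PCOS-MV than in PCOS (SE 0.07, limma adjusted p = 0.000689). Src was the 1 gene of the 5 that passed in PCOS-MV against PCOS.

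Among the bHLH-PAS relatives of AHR and ARNT, 6 of the 12 genes in the table were in the fit, and 1 rose and 3 fell in PCOS, while 3 were higher and 1 was lower in PCOS-MV than in PCOS. Npas2 measured 4.29 to 5.38 FPKM in control and 10.2 to 12.7 in PCOS, a rise of 1.08 (SE 0.10, limma adjusted p = 0.000104), and it was 0.63 lower in PCOS-MV than in PCOS (SE 0.14, limma adjusted p = 0.0137). Arntl, the partner of CLOCK and NPAS2 in the circadian clock, went the other way. It fell by 1.15 in PCOS (SE 0.28, limma adjusted p = 0.0161) and was 2.10 higher in PCOS-MV than in PCOS (SE 0.15, limma adjusted p = 0.000112), with 21.6, 29.8, 33.1 and 28.4 FPKM in PCOS-MV against 5.24, 6.83, 6.61 and 4.55 in PCOS. Arnt2, the closest relative of Arnt, stood at 1.35 to 2.06 FPKM in PCOS, lower than control by 0.73 (SE 0.22, limma adjusted p = 0.0384) and lower than PCOS-MV by 0.50 (SE 0.13, limma adjusted p = 0.0194).

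Of 7 coregulators, 2 rose in PCOS and none fell, all by small amounts. Ncoa1, a coactivator, rose by 0.29 (SE 0.09, limma adjusted p = 0.0457), and Ncor1, a corepressor, by 0.24 (SE 0.08, limma adjusted p = 0.0496). Both were lower in PCOS-MV than in PCOS, by 0.27 (limma adjusted p = 0.0334) and 0.22 (limma adjusted p = 0.0269). Nrip1, a corepressor of nuclear receptors that also binds AHR, was lower in PCOS-MV than in PCOS by 0.44 (SE 0.10, limma adjusted p = 0.0161).

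The AHR gene battery beyond the members is the set of detoxification genes that the receptor is known to switch on in liver. Only 3 of its genes were in the fit, and Gsta2 was the 1 that passed. Gsta2, a glutathione S-transferase, measured 10.9, 7.22, 13.4 and 10.8 FPKM in control, 51.4, 63.9, 47.8 and 65.8 in PCOS and 16.6, 2.23, 6.32 and 1.62 in PCOS-MV. The PCOS values lay above all others, and PCOS-MV replicate 1 was again the highest of its group. The rise in PCOS was 2.35 (SE 0.18, limma adjusted p = 4.95e-05) and the difference of PCOS-MV from PCOS was −3.33 (SE 0.54, limma adjusted p = 0.00303). Gsta2 has close paralogs, and how their shared reads were counted is not stated, so its level is uncertain.

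Nqo1, the quinone reductase of the battery, did not pass in either comparison. It measured 6.69 to 10.9 FPKM in control, 7.14 to 7.998 in PCOS and 6.12 to 9.07 in PCOS-MV, with a difference of −0.10 (95% interval −0.42 to 0.22) between PCOS and control. Aldh3a1, the aldehyde dehydrogenase of the battery, lay between 0.105 and 0.435 FPKM in all 12 ovaries and its groups overlapped.

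Other genes that are known to respond to AHR gave 1 rise and 2 falls among 6 in PCOS. Cdkn1a and Cdkn1b, which encode the cell cycle inhibitors p21 and p27, fell by 1.09 (SE 0.24, limma adjusted p = 0.0102) and 0.72 (SE 0.19, limma adjusted p = 0.0203). In PCOS-MV both were higher than in PCOS, by 1.75 (SE 0.28, limma adjusted p = 0.00313) and 1.20 (SE 0.13, limma adjusted p = 0.000561). Xdh, xanthine dehydrogenase, rose by 0.57 in PCOS (SE 0.17, limma adjusted p = 0.0404). In PCOS-MV against PCOS 3 genes of the list were higher and 1 was lower. Among the 3 was Ereg, the EGF-family ligand epiregulin, at 0.543 to 3.25 FPKM in PCOS-MV, 0.160 to 0.837 in PCOS and 0.427 to 1.46 in control. Its PCOS-MV values carried it over the filter of 1 FPKM, so its call in that comparison is no support for a difference.

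Of the kynurenine route, which makes AHR ligands from tryptophan, 4 genes were in the fit and 1 passed. Aadat, the aminotransferase that turns kynurenine into kynurenic acid, measured 11.1, 10.1, 6.10 and 8.35 FPKM in control, 2.18, 1.14, 1.15 and 1.37 in PCOS and 21.5, 20.1, 4.30 and 15.7 in PCOS-MV. It was lower in every PCOS ovary than in any other. Against control it fell by 2.001 in PCOS (SE 0.19, limma adjusted p = 0.000163), and PCOS-MV exceeded PCOS by 2.56 (SE 0.43, limma adjusted p = 0.00362).

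Genes that handle estrogens and catechol estrogens, the products of CYP1B1, gave 3 rises and no fall among 8 in PCOS. Gstm1, a glutathione S-transferase that conjugates catechol estrogen quinones, rose from 96.1 to 108 FPKM in control to between 288 and 352 in PCOS, by 1.61 (SE 0.09, limma adjusted p = 1.19e-05). Sult1a1, a phenol sulfotransferase, rose from between 13.2 and 23.6 FPKM to between 53.6 and 59.5, by 1.51 (SE 0.16, limma adjusted p = 0.000288). In PCOS-MV both were lower than in PCOS, Gstm1 by 1.38 (SE 0.16, limma adjusted p = 0.000724) and Sult1a1 by 1.49 (SE 0.12, limma adjusted p = 0.000163). Both have paralogs that may share reads.

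The estrogen receptors gave a similar order. Esr2, the receptor of granulosa cells, rose by 0.69 in PCOS (SE 0.20, limma adjusted p = 0.0319) and was 0.81 lower in PCOS-MV than in PCOS (SE 0.11, limma adjusted p = 0.00147). Esr1 was 1.18 higher in PCOS without passing (SE 0.46, limma adjusted p = 0.0937), its control values being 7.15, 7.57, 39.0 and 12.7 FPKM, and it was 1.18 lower in PCOS-MV than in PCOS (SE 0.27, limma adjusted p = 0.0143).

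Of 6 electron donors and partners of microsomal P450s, Cyb5r3 alone passed in PCOS, with a rise of 0.55 (SE 0.08, limma adjusted p = 0.00159), and none passed in PCOS-MV against PCOS by limma. Por, the reductase that every microsomal P450 including CYP1B1 needs, measured 63.7, 52.5, 51.5 and 53.1 FPKM in control, 106, 49.7, 43.1 and 70.1 in PCOS and 80.8, 50.1, 51.2 and 51.1 in PCOS-MV. The groups overlapped, and the difference between PCOS and control was 0.20 (SE 0.25, limma adjusted p = 0.596).

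**Figure D3:**
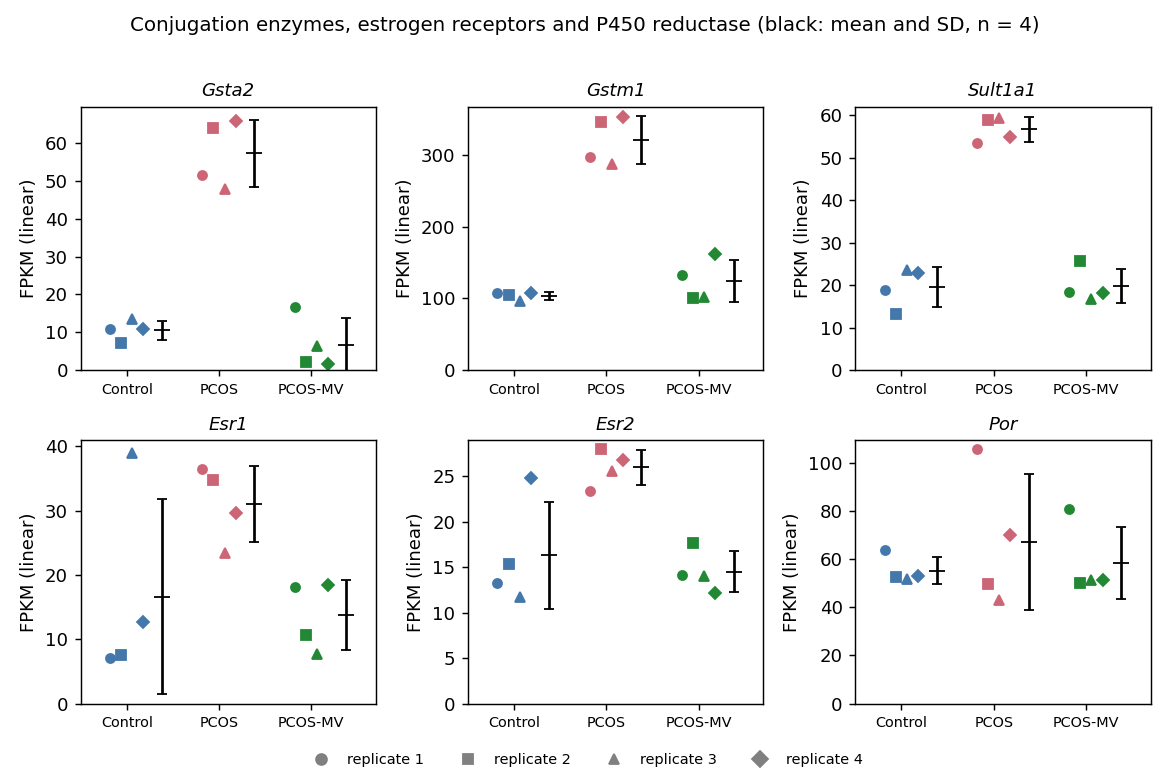
Level in each ovary, in FPKM on linear axes from 0, of Gsta2, Gstm1 and Sult1a1 (conjugating enzymes), Esr1 and Esr2 (estrogen receptors) and Por (P450 reductase). Each point is 1 rat, with the mean and SD of 4 in black. Gsta2, Gstm1 and Sult1a1 separated PCOS from both other groups, while the 39.0 FPKM of Esr1 in Control replicate 3 exceeded every PCOS value and Por overlapped in all groups. The SD bar of Gsta2 in PCOS-MV is cut at 0.

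The genes whose levels followed Cyp1b1 most closely over the 12 libraries, by Pearson r of log2(FPKM + 1), were Ccdc152 (0.982), Cdip1 (0.981), Tnfrsf1b (0.981), Selenop (0.975) and Insl3 (0.975). These correlations mostly restate the separation of the PCOS group, and after the group means were subtracted r was 0.70, 0.74, 0.70, 0.70 and 0.56. Selenop, the plasma selenium carrier, measured 3049 to 3180 FPKM in PCOS and 384 to 778 in the other ovaries. Ccdc152 lies on the opposite strand with its end 1242 bases from that of Selenop, so the 2 are neighbours. Insl3, a hormone of theca cells, measured 906 to 1188 FPKM in PCOS and 1.76 to 14.5 elsewhere, with its highest PCOS-MV value, 14.5 FPKM, in replicate 1. It overlaps an unnamed gene on the opposite strand, and without a stated strand setting their reads cannot be told apart. No p is given, since Cyp1b1 was chosen for this pattern.

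**Figure D4:**
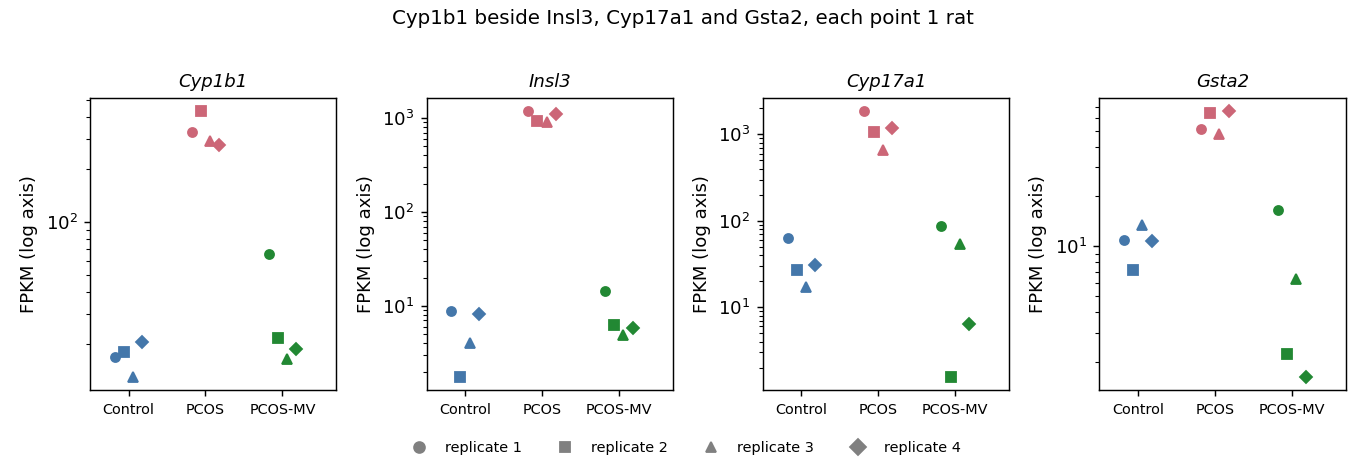
Cyp1b1 beside Insl3, Cyp17a1 and Gsta2, in FPKM on log axes that differ between panels. Insl3 and Cyp17a1 are theca cell genes, from the 4 of 8 theca and interstitial markers that rose in PCOS. Another 3 of the 8 (Star, Cyp11a1, Ptch1) fell in PCOS and are not shown. Each point is 1 rat and its shape gives the replicate number. All 4 genes were highest in PCOS, and among the PCOS-MV ovaries replicate 1 (circles) held the highest value of each gene, 65.7 FPKM for Cyp1b1 and 88.1 FPKM for Cyp17a1.

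The genes closest to Ahr were Necab1 (r = 0.925), Map4k3 (0.901), Rp2 (0.889), Cd44 (0.883) and Rnf103 (0.883). Necab1 reached the filter of 1 FPKM through its control values, with means of 1.69 FPKM in control, 0.431 in PCOS and 0.912 in PCOS-MV. Unlike the correlations with Cyp1b1, those of the 5 genes with Ahr did not come from the group means, and within groups r was 0.90, 0.93, 0.90, 0.88 and 0.84. Cd44, the hyaluronan receptor, measured 9.01, 6.89, 23.4 and 25.5 FPKM in control, so it was high in the same Control replicates 3 and 4 as Ahr and Tiparp. The points are 12 libraries in 3 groups, and the values are a description.

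Of 8 theca and interstitial markers, 4 rose in PCOS (Cyp17a1, Insl3, Lhcgr, Nr5a1) and 3 fell (Star, Cyp11a1, Ptch1), and in PCOS-MV against PCOS 5 were lower and 1 (Star) was higher. Cyp17a1, the androgen-forming P450 of theca cells, measured 655 to 1866 FPKM in PCOS, 17.0 to 63.6 in control, and 88.1, 1.57, 53.4 and 6.41 in PCOS-MV. The summed FPKM of the 8 markers was 3351 to 5977 in control, 3018 to 5734 in PCOS and 2479 to 5039 in PCOS-MV, so the groups overlapped in the sum. Star and Cyp11a1, which both fell in PCOS, dominate that sum, so it does not track the markers that rose. The adrenal cortex markers Cyp11b2 and Cyp21a1 were at or below 0.106 FPKM in every library, with several at 0, and the 4 adrenal markers in the table summed to 6.73 to 12.1 FPKM in control, 7.28 to 10.1 in PCOS and 9.10 to 14.8 in PCOS-MV. The part of cell composition in the Cyp1b1 difference was not tested.

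Of the remaining marker lists, granulosa cell markers gave 4 rises of 8 in PCOS (sums of 1108 to 1588 FPKM against 685 to 942 in control and 633 to 1130 in PCOS-MV), and luteal markers gave 1 rise and 3 falls of 6 (382 to 603 FPKM against 1018 to 3700 and 1650 to 5001). Endothelial markers gave 1 rise and 4 falls of 5, fibroblast markers 1 and 2 of 5, smooth muscle and pericyte markers 1 fall of 6, and leukocyte markers 1 rise of 5. None of 4 oocyte markers passed by limma. Adipocyte markers summed to 5.27 to 36.1 FPKM in control, 0.691 to 3.85 in PCOS and 1.09 to 2.03 in PCOS-MV. Both that were in the fit were called lower in PCOS. The control libraries, with the highest sums, weighed most in carrying them over the filter of 1 FPKM, so these calls are no support for a difference. Control replicate 3 held the highest adipocyte sum, the highest smooth muscle sum (931 FPKM beside 373 to 698 elsewhere) and the highest oviduct sum (10.4 FPKM beside 1.59 to 3.28), and it was also 1 of the 2 control libraries with high Ahr and Tiparp. Without Control replicate 3 the difference between PCOS and control was −0.21 for Ahr and 4.07 for Cyp1b1. The summed FPKM per library was 339830 to 373758, and the steps between low values imply 30305600 to 37030100 counted fragments per library.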

How the data were processed

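The members and the gene lists were chosen with earlier results of these data known. According to the paper's methods, the authors aligned the paired reads with HISAT2, counted fragments per gene with featureCounts and deposited FPKM values, while the submitters' processing notes name STAR 2.5.1b and HTSeq 0.6.0. The genome build is not given in the sources used here, nor is a strand setting for counting. The deposited table also holds the authors' group means and their own fold changes and p-values, which were not used. The methods give 4 sequenced rats per group, as in the table, but another number of replicates for the authors' own test. Its columns marked MG were taken as PCOS-MV, the remaining group.

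A count test had been planned for counts, and the table holds FPKM. About 29.9% to 35.2% of the low values fell within 0.02 of a whole number of fragments, so counts were not recovered and depth is implied only. The 26928 transcript lines were reduced to 19730 genes. Groups were compared in pairs by limma 3.58.1 in R 4.3.3 (lmFit, eBayes with trend) on log2(FPKM + 1), over genes averaging 1 FPKM or more, with no covariate, and with Benjamini-Hochberg adjustment over all genes tested at 0.05. The scale understates changes of low genes. The 4 members Ahr, Arnt, Ahrr and Tiparp in 2 comparisons were also tested by an exact two-sided permutation test, 8 tests in all, without adjustment. Tables and plots used Python 3.11.15, pandas 2.3.3 and matplotlib 3.10.9, and the fit was tested on simulated data.

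Named genes were the members, Cyp1a2, Nqo1, Aldh3a1 and Por, up to 3 genes per list with the largest called difference in each of PCOS against control and PCOS-MV against PCOS, and the 5 genes most correlated with Cyp1b1 and with Ahr. Some listed genes are not reported here by name. Akr1c18 was matched as Akr1c3 through a RefSeq synonym. Alternatives were a pseudocount of 0.1, no filter, 1 model over 12 libraries, a replicate block, median-ratio rescaling, and leaving out each library. Replicates were taken as separate rats, since the paper's methods give 4 rats per group, while the sample titles only number the libraries. No 2 libraries held identical values.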

Additional observations from a re-analysis of the deposited data

Results flagged for a closer look

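Among the 120 groups of 4 libraries examined for the named genes, 14 held a library far from the other 3, where chance flags about 1 in 20 groups, or 6. PCOS-MV replicate 1 was that library 4 times. Its Cyp1b1 was 65.7 FPKM beside 16.5 to 21.8 in the others, its Ahrr was 0.102 FPKM beside 0.501 to 0.540, its Insl3 was 14.5 FPKM beside 4.91 to 6.27, and its Por was 80.8 FPKM beside 50.1 to 51.2. For Cyp1b1, Ahrr and Insl3 the distance is in the direction of the PCOS values. Insl3 was examined because its levels followed Cyp1b1 over all libraries, so its flag is not separate from that of Cyp1b1.

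In control, replicate 1 stood apart for Ahrr, 0.302 FPKM beside 0.644 to 0.687, and for Por, 63.7 FPKM beside 51.5 to 53.1. Control replicate 3 stood apart for Cdip1, 16.9 FPKM beside 19.3 to 19.7. In PCOS, Aldh3a1 was 0.435 FPKM in replicate 1 beside 0.250 to 0.278, Ereg was 0.837 FPKM in replicate 3 beside 0.160 to 0.254, and Rp2 was 1.33 FPKM in replicate 4 beside 1.54 to 1.58. In PCOS-MV, Aldh3a1 was 0.115 FPKM in replicate 3 beside 0.223 to 0.240, and Ncor1 was 30.8 FPKM in replicate 4 beside 28.3 to 28.6. The flags of Cyp1a1 in PCOS replicate 3 (0.0122 FPKM) and Cyp1a2 in PCOS replicate 2 (0.0221 FPKM) are single low values beside 3 libraries at 0.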

How the results depend on the processing

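Every alternative kept the Cyp1b1 difference between PCOS and control within 1 SD of the replicates, and it ran from 4.05 to 4.28 with 1 library left out. The count of listed pathway genes that passed was less stable in PCOS against control, with 10 to 17 instead of 18 when 1 library was left out. For PCOS-MV against control 1 gene passed, 0 with the replicate block, 2 with a pseudocount of 0.1 and no filter (chosen after seeing the data), and 1 to 4 with 1 library left out. The Arnt difference between PCOS-MV and control had no stable sign, from −0.10 to 0.035 with 1 library left out. The deviations of same-numbered libraries correlated above 0.1 in 0 of 4 pairs in PCOS against control, 3 of 4 in PCOS-MV against PCOS and 1 of 4 in PCOS-MV against control, and 0, 7 and 2 of 8 libraries correlated best with their own number. Since not every pair exceeded 0.1, the numbers were not treated as a pairing, with the PCOS-MV against PCOS values as a hint from the data. With the replicate block 2905 genes instead of 3684 passed in PCOS against control and 3079 instead of 3448 in PCOS-MV against PCOS. Tiparp in PCOS-MV against PCOS had a limma adjusted p of 0.045 with the block and of 0.287 in 1 model over all 12 libraries. Why these values move was not tested. Depth limits Ahrr and Cyp1a1, which rest on at most 108 and 1 implied fragments.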
